A study of Columba livia and Gallus gallus with 96 samples.

Results

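The genes of the cytosolic ribosome were followed through early limb development in domestic pigeon (Columba livia) embryos. They were all features whose gene name is RPL or RPS with a number (with an A, X, Y or L suffix where present), RPLP0 to RPLP2 or RPSA, with the counts of features that share a symbol summed. This gave 66 genes carried by 73 features, out of 14845 gene names and unnamed models in the count table. Of the 66 genes, 26 are named for the small subunit (RPS3, RPS6, RPSA and so on) and 40 for the large subunit (RPL3, RPL11, RPLP0 and so on). The names also take in the paralogs RPL3L, RPL7L1, RPL22L1, RPL26L1 and RPS27L. RPL7L1, which in mammals takes part in building the large subunit, is counted with the large-subunit genes by its name. RPS19, RPLP1, RPL10, RPL26, RPL39L, RPS4X and RPS4Y were not analysed here, since no feature carries these names, and features named in words, those of the large-subunit proteins L17 and L36a among them, fall outside the rule.

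RNA was sequenced from hindlimb and forelimb buds of grouse, muff and scale embryos at Hamburger-Hamilton stages HH21, HH25 and HH29, which are embryonic days 3.5, 4.5 and 6. The design sets pigeons with feathered feet, here the grouse and muff groups, beside scale-footed pigeons. This makes 18 groups of 4 libraries, 72 in all, from untreated limb buds. Buds were dissected as pairs, and the labels give no allele, breed or embryo sex and do not say how many embryos a library holds. Totals ran from 10438537 to 16378164 counts per library (median 12915094.5), so that even RPL3L, the member with the fewest counts, passed the filter on low counts, as did the other members in each of the 19 comparisons tested. Hindlimb buds carried more TBX4, PITX1, HOXC10 and HOXC11 and less TBX5 and HOXD8 than forelimb buds at every stage, as the limb labels require. In bulk tissue, fewer cells of a type and less RNA per cell cannot be told apart.

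The ribosome is built in the nucleolus from ribosomal RNA and about equal molar amounts of each ribosomal protein, with the help of many assembly factors that do not stay in the finished particle. In mammals, ribosomal protein mRNAs carry a short pyrimidine-rich start and are translated together under growth signals through mTOR and LARP1, so that protein output can change with little change in mRNA. Some ribosomal proteins also act outside or specifically within the ribosome. RPL38, for example, is needed for normal skeletal patterning in mouse, and RPL5 and RPL11 restrain MDM2 in human cells when assembly fails.

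Over the 72 libraries the 66 genes took 7.08% ± 0.576 of all counts (SD), from 6.09% to 9.09%. The share was 6.80% ± 0.643 at HH21, 7.22% ± 0.533 at HH25 and 7.22% ± 0.457 at HH29 (SD, n = 24 libraries each). Hindlimb buds held 7.09% ± 0.676 and forelimb buds 7.07% ± 0.466 (n = 36 each). By phenotype the share was 7.11% ± 0.625 in grouse, 7.05% ± 0.613 in muff and 7.08% ± 0.508 in scale (n = 24 each). The means of stage, limb and phenotype thus lay closer together than the libraries within each class. Group means ran from 6.46% ± 0.0942 in scale hindlimb at HH21 to 7.77% ± 0.426 in scale forelimb at HH25 (n = 4 each).

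Single libraries stood further out than any group mean. Replicate 1 of grouse hindlimb at HH21 had the highest share, 9.09%, while the other libraries of its group had 7.50%, 6.54% and 6.13%. Replicate 3 of muff hindlimb at HH29 came next with 8.75%. Counts of stage calls in hindlimb are given with and without the grouse library. Shares by stage and fold changes of single genes over all libraries include it. Leaving out the muff library gave 4 higher and 12 lower of the 66 genes between HH25 and HH29 in hindlimb, against 6 and 9 with it, by the edgeR test used for stages. The share of all genes called without it is not given here.

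**Figure D1:**
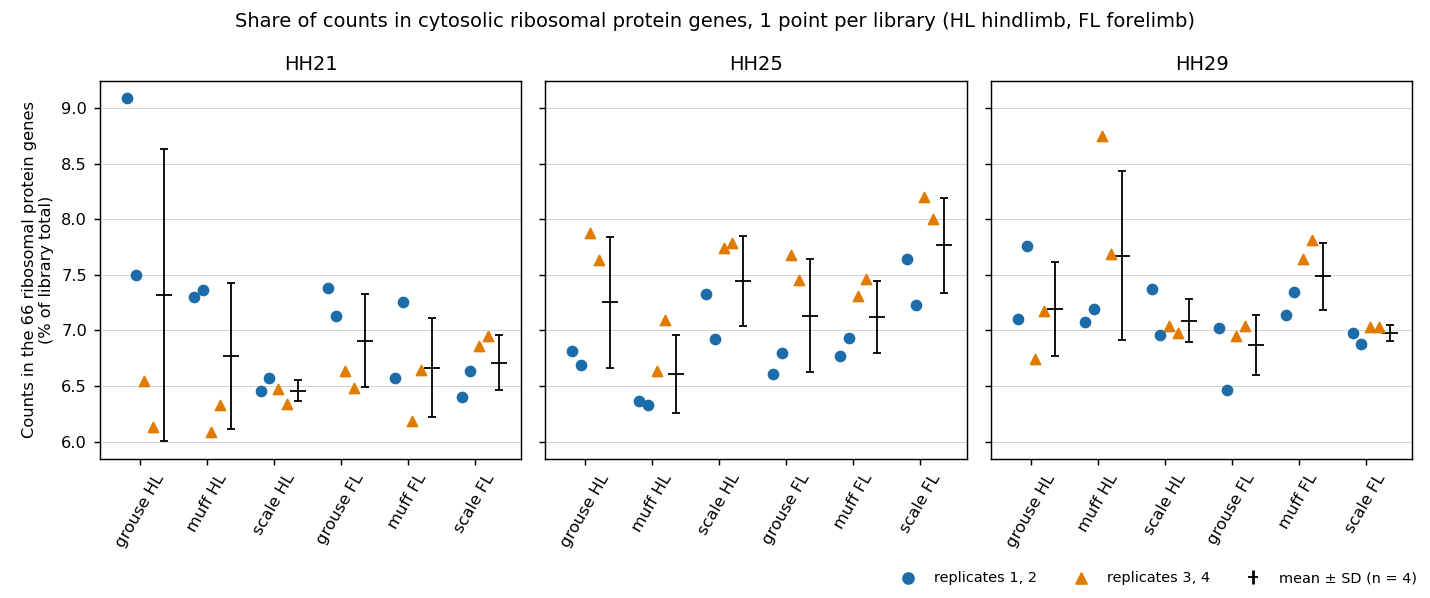
Share of each library's counts that fell in the 66 ribosomal protein genes (y axis, % of the library total), by phenotype and limb (x axis) at HH21, HH25 and HH29. Circles are replicates 1 and 2, triangles replicates 3 and 4, and bars the mean ± SD of 4 libraries. The points stay between 6.09% and 9.09%, and at HH25 the triangles lie above the circles in 6 of 6 groups.

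The plot of shares by library also shows a split by replicate number. At HH25, replicates 3 and 4 had a higher share than replicates 1 and 2 in 6 of 6 groups, by 0.519 to 1.004 percentage points between set means. At HH21 the order was mostly the other way, with both of replicates 1 and 2 above both of replicates 3 and 4 in 3 of 6 groups and below in 1. At HH29 replicates 3 and 4 lay above in 3 of 6 groups, with differences from -0.471 to 1.08 points. The labels' protocol puts 12 libraries on a sequencing lane, and each set holds 12 libraries at a stage, but no label says which libraries shared a lane, batch or date. Whether the sets differ by lane was therefore not tested. Library totals overlapped between the sets at each stage, for example 10438537 to 15222075 counts in replicates 3 and 4 at HH25 and 11415752 to 14486655 in replicates 1 and 2. The share of the 3 blood genes that could be measured also overlapped there, at 0.0294% to 0.0744% and 0.0214% to 0.143%.

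The first question put to the genes was how they change as the bud grows and differentiates. HH25 was compared with HH21, and HH29 with HH25, within each limb over all 3 phenotypes, with edgeR's quasi-likelihood test and a Benjamini-Hochberg adjusted p below 0.05 as the threshold for a call. Between HH21 and HH25, 17 of 66 ribosomal protein genes were called in hindlimb (5 higher and 12 lower at HH25) and 26 in forelimb (20 higher, 6 lower). Of all genes tested, 54.3% were called in hindlimb (27.4% higher, 26.9% lower) and 54.1% in forelimb (27.1% higher, 26.9% lower), against 25.8% and 39.4% of the ribosomal protein genes. Between HH25 and HH29, 15 were called in hindlimb (6 higher, 9 lower at HH29) and 21 in forelimb (1 higher, 20 lower), where 49.1% (25.3% higher, 23.9% lower) and 46.6% (23.9% higher, 22.6% lower) of all genes were called.

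The median log2 fold change over the 66 genes was -0.01 in hindlimb and 0.07 in forelimb from HH21 to HH25, and -0.01 and -0.09 from HH25 to HH29, while the median over all genes tested lay between 0.00 and 0.01. In 25 genes no stage comparison passed the threshold, among them RPL4, RPL5, RPL8, RPLP0, RPS7, RPS27A and RPSA. The balance of higher and lower calls shifted with the scaling of the libraries. Upper-quartile scaling gave 28 higher and 3 lower at HH25 in forelimb, 9 and 9 at HH25 in hindlimb, and 8 and 6 at HH29 in hindlimb. DESeq2 gave 3 and 12 at HH25 in hindlimb, and scaling factors computed without the 66 genes gave 27 and 3 at HH25 in forelimb. The number called also moved with single replicates, to 5 at HH29 in hindlimb without replicate 2 of each group and to 17 at HH25 in forelimb without replicate 3. Shares of all genes called are not given here for these settings. Under these settings, a shift of the members was therefore not set against a shift of all genes.

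Most genes of the machinery that assembles ribosomes fell at each step. Of 43 ribosome assembly genes tested, none was called higher in any stage comparison, and 38 and 33 were lower at HH25 than at HH21 in hindlimb and forelimb, and 32 and 32 lower at HH29 than at HH25. Their median log2 fold changes were -0.32, -0.30, -0.33 and -0.24. NPM3, a nucleolar histone chaperone of the nucleophosmin family, fell by 1.07 on the log2 scale in hindlimb and by 1.04 in forelimb between HH21 and HH25. GAR1, a core protein of the particles that guide pseudouridylation of ribosomal RNA, fell by 0.72 and 0.71 over the same step, and the AAA ATPase MDN1, which remodels large-subunit precursors, by 0.87 and 0.82. Together the 43 genes took a median of 1.37%, 1.15% and 0.935% of counts at HH21, HH25 and HH29.

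Genes of proliferation and of other parts of translation were counted in the same way. For these lists and the assembly genes, the shares of all genes tested are the background. Lower calls made 26.9% of all genes at HH25 in each limb, and 23.9% and 22.6% at HH29 in hindlimb and forelimb. Higher calls made 27.4% and 27.1% at HH25, and 25.3% and 23.9% at HH29. All 22 proliferation genes tested were lower in each of the 4 stage comparisons, with medians from -0.52 to -0.39. Among 62 mitochondrial ribosomal protein genes, 31 were lower and 2 higher at HH25 in hindlimb and 21 lower and 4 higher in forelimb, and 36 and 41 were lower, with none higher, at HH29. RNA polymerase I subunits and growth regulators were lower in 10, 12, 11 and 8 of 18 genes in those 4 comparisons and higher in 1, 1, 0 and 0. Translation factors were mixed, with 4 higher and 18 lower of 34 at HH25 in hindlimb and 9 and 14 in forelimb. At HH29, 6 were higher and 16 lower in hindlimb, and 2 and 17 in forelimb. EEF1A2, the elongation factor form of adult muscle and nerve in mammals, was the translation factor with the largest rise, by 1.19 and 1.26 at HH25 and by 1.60 and 1.46 at HH29 in hindlimb and forelimb.

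Markers of differentiating tissue moved with stage at the same time. Each of 12 cartilage genes was higher at HH25 than at HH21 in both limbs, and their summed share was 0.0202% to 0.0506% at HH21, 0.0801% to 0.212% at HH25 and 0.127% to 0.361% at HH29. Muscle genes took 0.00243% to 0.00933%, 0.0177% to 0.128% and 0.138% to 0.219%. Of 8 limb mesenchyme genes, 6 were lower and 1 higher at HH25 in hindlimb, and 5 lower and 2 higher in forelimb. The part of cell composition in the stage changes of ribosomal protein genes was not tested.

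**Figure D2:**
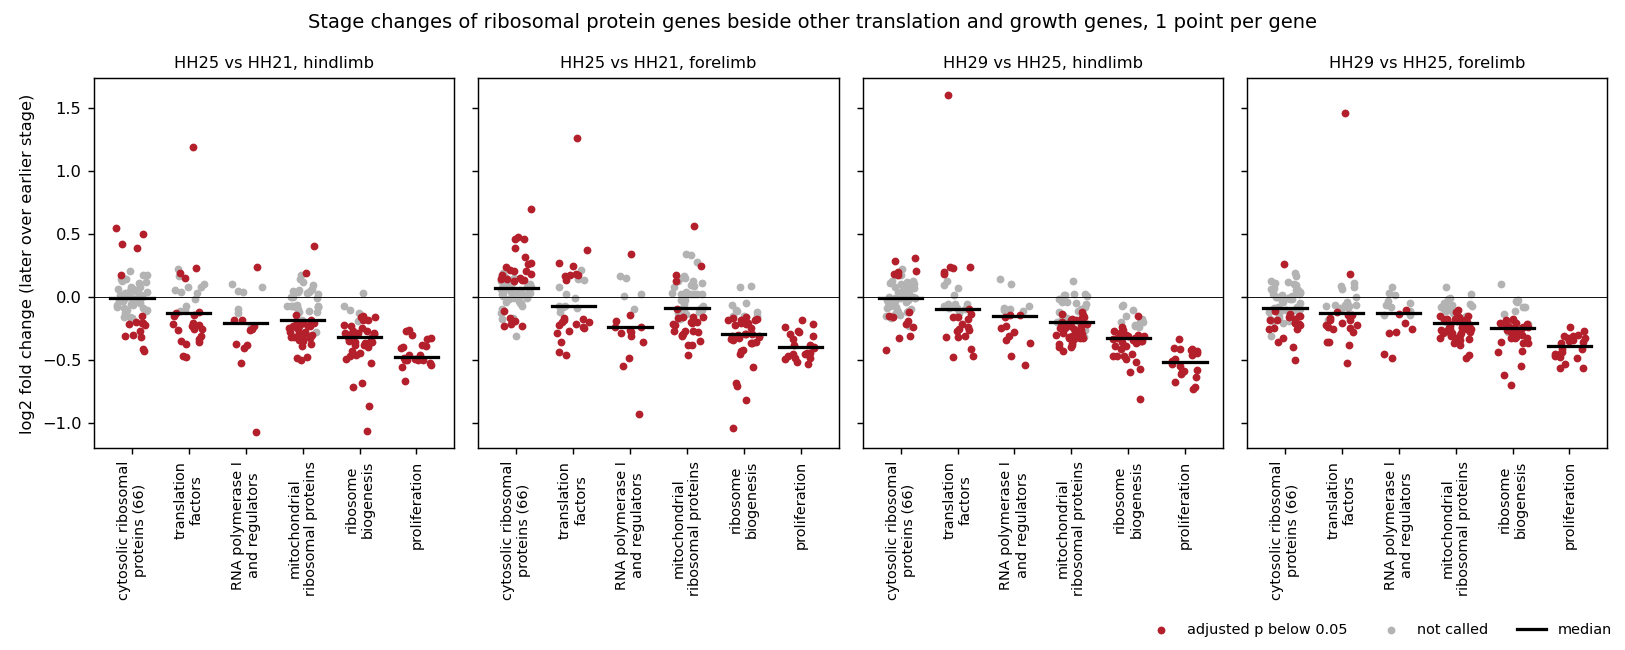
Log2 fold change of later over earlier stage (y axis) for each gene of 6 lists (x axis), in the 4 stage comparisons. Red points were called by edgeR at an adjusted p below 0.05, grey points were not, and black lines are medians. Ribosomal protein genes scatter around 0 with medians between -0.09 and 0.07, while all 22 proliferation genes lie below 0 in each panel.

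The direction of the ribosomal protein genes between stages depended on which replicates were compared. With replicates 1 and 2 alone, 37 genes were lower and 1 higher at HH25 than at HH21 in hindlimb, where 45% of all genes were called. With replicates 3 and 4 alone, 38 were higher and 5 lower, where 63.2% of all genes were called. In 24 of the 66 genes both sets gave a call and the signs were opposite, among them RPL10A, RPLP0, RPS20, RPS27A and RPSA. The share of all genes that turned in this way is not given here for either limb, so the count cannot be set against it. In forelimb, replicates 1 and 2 gave 8 higher and 10 lower, against 38 and 7 in replicates 3 and 4, with 10 genes called in opposite directions (all genes called, 29.8% and 64.1%). From HH25 to HH29 the sets gave 21 higher and 6 lower, against 0 and 22, in hindlimb, and 4 and 10, against 0 and 35, in forelimb. All genes were called there at 44.5% and 39.1% in hindlimb and at 33% and 39.4% in forelimb. The single library of grouse hindlimb with the 9.09% share bears on the first step as well. Without it, the hindlimb comparison of HH25 with HH21 gave 11 higher and 10 lower. That of HH29 with HH25 gave 6 higher and 14 lower. This HH21 library is in neither stage of that comparison. It enters there only through the filter, scaling and estimate of spread that the 36 libraries share. The share of all genes called without this library is not given here.

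The other lists were compared in the same way, without a test of the difference between lists. At HH25 in hindlimb, 29 of 43 assembly genes were lower and none higher in replicates 1 and 2, and 30 were lower and 3 higher in replicates 3 and 4. Proliferation genes gave 18 lower of 22 in replicates 1 and 2 and 19 in replicates 3 and 4, with none higher. Mitochondrial ribosomal protein genes gave 40 lower and 1 higher of 62 in replicates 1 and 2, against 23 lower and 15 higher in replicates 3 and 4.

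**Figure D3:**
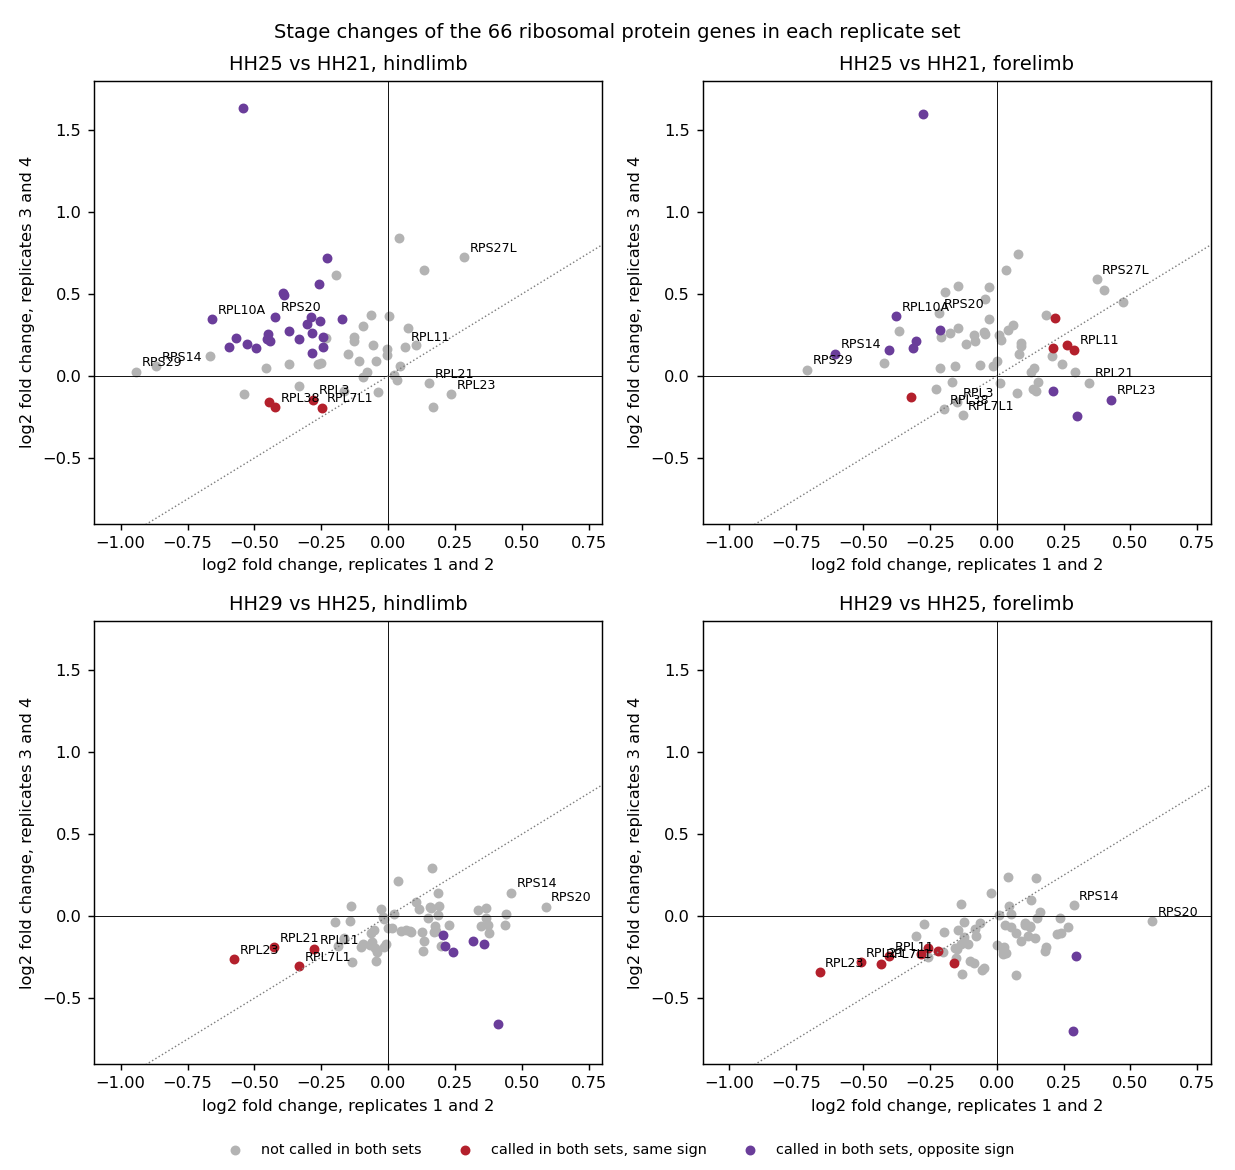
Log2 fold change of each of the 66 genes between stages, fitted in replicates 1 and 2 (x axis) and in replicates 3 and 4 (y axis), 1 panel per comparison; the dotted line marks equality. Red genes were called in both sets with the same sign and purple genes in both with opposite signs. In hindlimb from HH21 to HH25, 24 genes are purple and 4 red (RPL3, RPL37A, RPL38 and RPL7L1). Shares of all genes in these classes are not given here.

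A small number of members changed in the same direction in both replicate sets and were called in each. Between HH21 and HH25 they included RPL3, RPL37A, RPL38 and RPL7L1 in hindlimb, each lower. In forelimb they included RPL7, which was lower, and RPL11, RPL26L1 and RPL35, which were higher. Between HH25 and HH29, RPL11, RPL21, RPL23 and RPL7L1 were lower in hindlimb, and in forelimb the same 4 genes, with RPL27A, RPL39 and RPL6 among others. No gene met this rule as higher at HH29.

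RPL7L1, a paralog of RPL7 that in mammals takes part in building the large subunit, was the only member called in all 4 stage comparisons, each time lower. In hindlimb its lowest, median and highest values over 12 libraries were 317, 389 and 469.7 CPM at HH21, 319, 329 and 361 CPM at HH25, and 238, 272 and 295 CPM at HH29. The HH29 libraries all lay below the HH25 libraries, and the HH21 range reached down to the HH25 range. How many of all genes separate the stages in this way is not given here. In forelimb the values were 326, 372 and 404 CPM at HH21, 295, 325 and 384 CPM at HH25, and 221, 259.6 and 279 CPM at HH29. On the log2 scale it changed by -0.22 (SE 0.04) and -0.20 (SE 0.04) at HH25 and by -0.32 (SE 0.04) and -0.36 (SE 0.04) at HH29 in hindlimb and forelimb, and edgeR's adjusted p was 3.41e-08 and 3.31e-09 for the second step. RPL7 itself, a core large-subunit protein, was lower at HH25 (-0.32 in hindlimb, -0.23 in forelimb) but higher at HH29 in hindlimb (0.20) and not called in forelimb (0.07). The counting of reads that match both paralogs is not stated.

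RPL38, the large-subunit protein linked to vertebral patterning in mouse, fell at HH25. In hindlimb it had 383, 512 and 672 CPM at HH21 (lowest, median, highest of 12), 371, 416 and 495 CPM at HH25, and 333, 359.7 and 453 CPM at HH29. The ranges overlapped between neighbouring stages. The log2 fold change was -0.31 (SE 0.06) from HH21 to HH25 and -0.19 (SE 0.06) from HH25 to HH29 (edgeR, adjusted p 0.000142 and 0.0157). In forelimb it was -0.21 at HH25, which was called, and -0.20 at HH29, which was not (edgeR, adjusted p 0.039 and 0.0544).

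RPL3, which lies next to the peptidyl transferase centre, was also lower at HH25. It had a median of 2689 CPM (2471 to 2883) at HH25, against 3079 CPM (2610.4 to 3763) at HH21 in hindlimb, and 2746 CPM (2465 to 2851) against 3024 CPM (2568 to 3366) in forelimb. Fold changes were -0.21 and -0.17 on the log2 scale, both called, and no change was called at HH29 (-0.02 and -0.08). RPL37A had a median of 778 CPM at HH25 against 912 CPM at HH21 in hindlimb (log2 fold change -0.30, called) and 851 against 940.0 CPM in forelimb (-0.17, not called).

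RPL23, RPL21 and RPL11 were lower at HH29 in both limbs and both replicate sets. The first of them, RPL23, a protein of the subunit interface that also binds MDM2 in human cells, had 568, 656 and 803 CPM at HH29 (lowest, median, highest of 12), against 812, 889.7 and 1036 CPM at HH25 in hindlimb, and 458, 635 and 735 CPM against 777, 888 and 1055 CPM in forelimb. The stages did not overlap in either limb, and the log2 fold changes were -0.42 (SE 0.06) and -0.50 (SE 0.07), with edgeR adjusted p of 3.33e-07 and 4.14e-07. The share of all genes whose stages do not overlap is not given here, so this separation is not set against it. Of all genes, 49.1% and 46.6% were called in these comparisons. RPL21 had medians of 907 and 871 CPM at HH29 against 1158 and 1161 CPM at HH25 in hindlimb and forelimb (-0.31 and -0.40). RPL11, which with RPL5 joins the 5S ribosomal RNA to the subunit, had medians of 950.0 and 879 CPM at HH29 against 1119 and 1087 CPM at HH25 (-0.24 and -0.32). Its partner RPL5 did not pass the test in any stage comparison, with log2 fold changes from -0.01 to 0.10.

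Paralogs were compared next. RPL22, an RNA-binding protein of the large subunit that is not needed for general translation in mouse, was lower at HH29 in hindlimb and forelimb (-0.22 and -0.25, both called), with medians of 166 and 169.5 CPM at HH29 against 192 and 196 CPM at HH25. Its paralog RPL22L1, which takes its place in the ribosome when RPL22 is lost in mouse, was higher at HH29 in hindlimb (0.17, called) and had 0.12 in forelimb (not called). Medians of RPL22L1 were 548 and 525 CPM at HH29 against 489 and 485 CPM at HH25. RPS27L, a paralog of the small-subunit protein RPS27 that p53 induces in human cells, rose at HH25 by 0.50 in hindlimb and 0.47 in forelimb, with medians of 23.3 and 24.7 CPM at HH25 against 16.3 and 17.4 CPM at HH21. RPS27 had -0.03 and 0.10 over that step, neither called. The difference between paralogs was not itself tested. In no stage comparison was RPL22, RPL22L1 or RPS27L called with the same sign in both replicate sets. RPL22 was called in both sets with opposite signs at HH25 in hindlimb. RPL3L, the paralog of RPL3 that is specific to muscle in mammals, stayed at medians between 1.51 and 1.77 CPM in all 6 stage and limb classes, while 10 and 9 of 11 muscle genes were higher at HH25 in hindlimb and forelimb.

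Some other called members turned or lost their change with the replicate set. At HH25, RPS14, a small-subunit protein, had -0.41 in hindlimb over all libraries, -0.87 in replicates 1 and 2 and 0.06 in replicates 3 and 4. RPS29 had -0.43, -0.94 and 0.03 in the same order. RPS20 was the only member called higher at HH29 in both limbs (0.31 in hindlimb and 0.26 in forelimb). That rise came to 0.59 and 0.58 in replicates 1 and 2, against 0.06 and -0.03 in replicates 3 and 4.

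Several members with known roles beyond the ribosome core were not called over all libraries. RPSA, also known as the laminin receptor, RPLP0, the base of the stalk that recruits elongation factors, and RPS27A, which is made as a fusion to ubiquitin, had log2 fold changes between -0.17 and 0.11 over the 4 stage comparisons. RPL10A, called in none of these, had -0.66 in replicates 1 and 2 and 0.35 in replicates 3 and 4 at HH25 in hindlimb. RPLP2, a stalk protein that partners RPLP0, was higher at HH25 (0.14) and lower at HH29 (-0.25) in forelimb, both called, and had 0.06 and -0.12 in hindlimb, where neither was.

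Calls were also counted by subunit name, RPL7L1 with the large subunit, with no test of the difference. At HH25 in forelimb, 11 large-subunit genes were higher and 5 lower, and 9 small-subunit genes were higher and 1 lower. Of all genes, 27.1% were higher and 26.9% lower there. In hindlimb at HH25, 7 large-subunit genes were lower and none higher, and 5 small-subunit genes were higher and 5 lower. All genes were at 27.4% higher and 26.9% lower. At HH29 in forelimb, 17 of 40 large-subunit genes were lower and none higher, while 3 of 26 small-subunit genes were lower and 1 higher. Of all genes, 22.6% were lower and 23.9% higher there. In hindlimb at HH29, 9 large-subunit genes were lower and 2 higher, and 4 small-subunit genes were higher and none lower. Of all genes, 23.9% were lower and 25.3% higher in that comparison, so the lower large-subunit genes lie near the share of all genes. The ratio of small-subunit to large-subunit counts had medians of 0.661 (0.619 to 0.737) at HH21, 0.692 (0.645 to 0.755) at HH25 and 0.739 (0.668 to 0.845) at HH29 over 24 libraries each. Without RPS6, RPS23 and RPL37, which RefSeq lists on chromosome Z, the medians were 0.606, 0.611 and 0.633, which lie closer together. The highest ratio, 0.845, came from replicate 2 of grouse forelimb at HH29.

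The second question was whether hindlimb and forelimb buds of one stage differ. With the limbs treated as independent samples, 0 of 66 ribosomal protein genes were called at HH21, HH25 or HH29 by edgeR, where 6.11%, 7.73% and 8.15% of all genes were called. At an unadjusted p below 0.05 the counts were 0, 3 and 0, and DESeq2 called 0 at each stage. Shares of all genes at an unadjusted p below 0.05 are not given here. Hindlimb was above forelimb in 62 genes at HH21, 7 at HH25 and 58 at HH29. Median log2 fold changes were 0.05, -0.04 and 0.04, and between 0.00 and 0.01 over all genes tested. Members deviated from group means together (median correlation between members 0.452), so these signs are not separate results. In share of counts, replicate 1 of grouse at HH21 had hindlimb 1.71 points above forelimb, against a median of -0.0793 over 12 pairs. At HH29, replicate 2 of grouse had 1.29 and replicate 3 of muff 1.10, against a median of 0.0473.

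Libraries of the 2 limbs with the same number deviated together at each stage, so the limbs were also compared within pairs. With the pairs as a block in edgeR, 26 genes were called at HH25, all of them lower in hindlimb, when 28% of all genes were called, and 14% of all genes called lower. None was called at HH21 or HH29, where 16.5% and 17.1% of all genes were called. At an unadjusted p below 0.05 there were 4 and 2 members, with the share of all genes not given here. The pairing at HH21 is less sure for numbers 2 and 4 of muff. Genes on chromosome Z other than RPS6, RPS23 and RPL37 there deviated from group means in opposite directions between limbs. Their mean deviations in hindlimb and forelimb were 0.413 and -0.236 for number 2, and -0.0647 and 0.561 for number 4. The lower genes at HH25 came from both subunits and included RPS10, RPS20, RPL37A, RPS3A, RPLP0, RPL34 and RPS12, with log2 fold changes from -0.10 for RPS10 to -0.05 for RPL9. RPS3A, for example, was lower in hindlimb in 10 of 12 pairs, the exceptions being replicates 1 and 4 of grouse, with a log2 fold change of -0.09 (SE 0.02) and an adjusted p of 0.000188 in edgeR with the pairs as a block, and 0.246 without it.

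The share of counts at HH25 was lower in hindlimb in 9 of 12 pairs, with a median difference of -0.306 percentage points, but the phenotypes were not alike. Every muff pair (-0.668 to -0.371 points) and every scale pair (-0.453 to -0.215) was lower in hindlimb, while 3 of 4 grouse pairs were higher (0.203, 0.204 and 0.175) and replicate 2 was lower (-0.103). Grouse means were 7.25% ± 0.590 in hindlimb and 7.13% ± 0.513 in forelimb (SD, n = 4 each). The difference between phenotypes was not tested. At HH21 it was lower in 7 and higher in 5 of 12 pairs, and at HH29 lower in 5 and higher in 7. At HH25, 65 genes lay below 0 in replicates 1 and 2 and 54 in replicates 3 and 4. At HH21, 64 genes lay above 0 in replicates 1 and 2 and 5 in replicates 3 and 4. Limb mesenchyme markers also differed at HH25, with 4 of 8 genes called lower in hindlimb and 1 higher. Their part in the ribosomal protein difference was not tested.

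**Figure D4:**
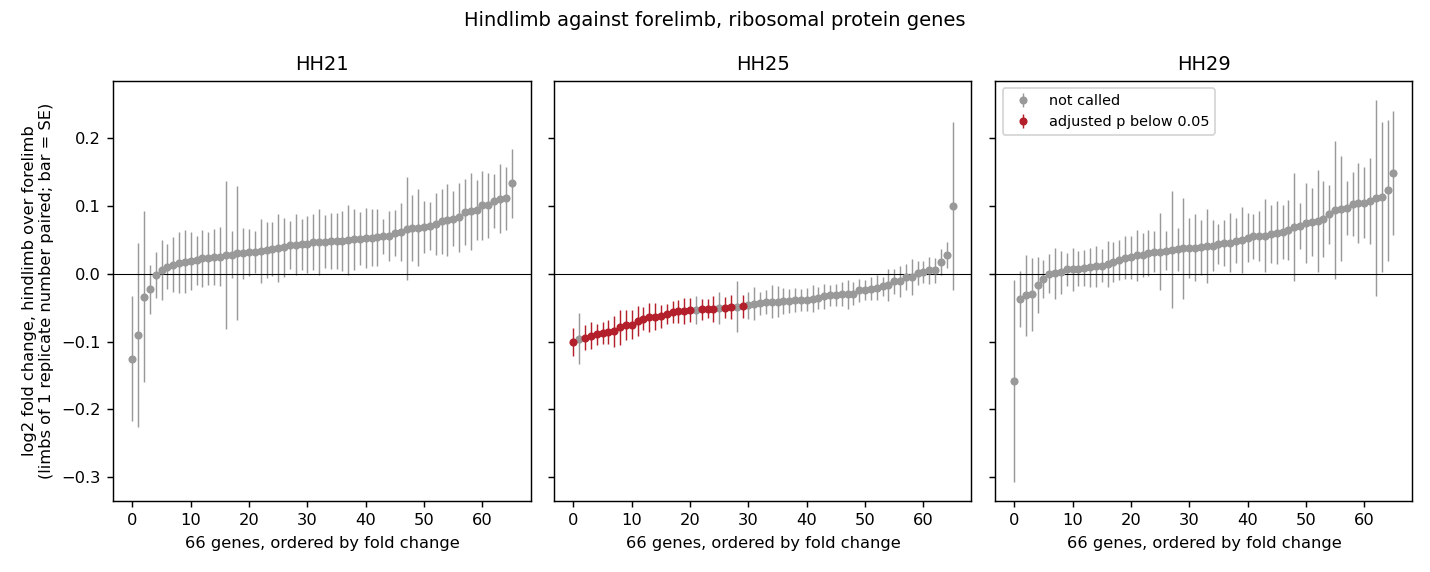
Log2 fold change of hindlimb over forelimb (y axis) for each of the 66 genes in order of size (x axis), with limbs of 1 replicate number paired; bars are standard errors. At HH25, 26 genes were called by edgeR (red), all below 0, and at HH21 and HH29 none was.

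The third question was whether feather-footed and scale-footed embryos differ. Grouse and muff share the scale libraries they were compared with. Over the 12 comparisons of grouse or muff with scale, edgeR called a ribosomal protein gene in 1: RPL22L1 was lower in muff than in scale hindlimb at HH25. Its values were 403, 438, 435 and 487 CPM in muff, against 606, 538, 538 and 514 CPM in scale, and the groups did not overlap. How many of all genes have groups that do not overlap is not given here. The log2 fold change was -0.32 (SE 0.07, edgeR adjusted p 0.0492), in a comparison that called 0.998% of all genes, 0.608% lower. The call was lost without replicate 2, 3 or 4 of each group, under upper-quartile scaling and with no filter on low counts. Grouse hindlimb had 491, 479, 510.3 and 486 CPM at the same stage, also below the scale libraries, with a log2 fold change of -0.16 that was not called (edgeR, adjusted p 0.363). At HH21 and HH29 the change of RPL22L1 in muff hindlimb was 0.17 and 0.00. RPL22L1 was not alone in its direction. In muff against scale hindlimb at HH25, 61 of 66 members lay below 0 and 5 above. The median log2 fold change was -0.14 over the members and -0.01 over all genes tested. In edgeR without a block, 19 members had an unadjusted p below 0.05, a threshold at which the share of all genes is not given here.

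At HH25, libraries of the same number also deviated together across phenotypes, with every correlation of deviations above 0.1. No label links the numbers of different phenotypes, and this pairing was read from these same data. With the numbers as a block, 9 members were called lower in muff than in scale hindlimb, where 4.41% of all genes were called. These were RPS24, RPL22L1, RPS2, RPS14, RPL10A, RPL37A, RPL36, RPL35A and RPL15, with log2 fold changes from -0.33 to -0.20. Under the block, 61 of 66 members lay below 0 and 5 above, and 39 had an unadjusted p below 0.05. The share of all genes at that unadjusted threshold is not given here, and the 4.41% is for the adjusted one. Members deviated from group means together, so the 9 calls are not separate results. RPS2, a protein at the mRNA entry site, had 1994, 2095, 2210.0 and 2345 CPM in muff, against 2561, 2378, 2819 and 2910.3 CPM in scale. Each muff library lay below all scale libraries. RPS2 was named after its values were seen, and the share of all genes that separate in this way is not given here. In forelimb the block called RPS2 lower in muff (-0.30) and RPL37A lower in grouse (-0.25), and in grouse hindlimb it called RPL12 higher (0.38), in comparisons that called 1.78%, 0.821% and 1.06% of all genes.

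In the other 11 comparisons edgeR without the block called 0 of 66. All genes were called at 0%, 0.26% and 0.302% in grouse hindlimb at HH21, HH25 and HH29, 0.124%, 0.219% and 0.0635% in grouse forelimb, 0.133% and 1.03% in muff hindlimb at HH21 and HH29, and 0.382%, 0.252% and 0.381% in muff forelimb. Members with an unadjusted p below 0.05 numbered 21, 5 and 2 in grouse hindlimb, 2, 7 and 2 in grouse forelimb, 6 and 9 in muff hindlimb, and 2, 6 and 6 in muff forelimb. Shares of all genes at the unadjusted threshold are not given here. DESeq2 called 1 member each in grouse hindlimb and forelimb at HH25, in muff hindlimb at HH21 and in muff forelimb at HH25 and HH29, and 2 in muff hindlimb at HH25. The 21 in grouse hindlimb at HH21 went with a median log2 fold change of 0.26 over the members and 64 of 66 above 0. Within replicates 1 and 2, which hold the library with the 9.09% share, the median was 0.44, and within replicates 3 and 4 it was 0.01.

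RefSeq's gene table of pigeon assembly bColLiv1.pat.W.v2, in which 63 of the 66 members were found, lists RPS6, RPS23 and RPL37 on chromosome Z. RPS6 is the small-subunit protein that S6 kinase phosphorylates, RPS23 contributes to the decoding centre and RPL37 is a zinc-binding large-subunit protein. In birds males carry 2 copies of Z and females 1, and dosage compensation is incomplete. The 3 genes had some of the largest spreads between replicates of one group, with standard deviations of log2(CPM + 1) of 0.435, 0.462 and 0.368, where the median over the members was 0.172 and that over 2435 other genes above 100 CPM was 0.141.

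Values of RPS6 fell into a high and a low band. In hindlimb at HH25 it had 3466, 1837, 1771 and 1869 CPM in muff and 2067, 1999, 2317 and 4191 CPM in grouse, against 4057, 3773, 3878 and 3741 CPM in scale. In forelimb the values were 3589, 1984, 2064 and 1989.9 CPM in muff and 2044, 2038, 2105 and 3783 CPM in grouse, against 4271, 3893, 4032 and 4083 CPM in scale. All 8 scale libraries of this stage were thus in the high band, with 1 number of muff and 1 of grouse in both limbs. RPS6 was not called in these comparisons, for example with a log2 fold change of -0.79 in muff against scale hindlimb (edgeR, adjusted p 0.122).

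The 3 genes rose and fell together. RPS23 and RPS6 lay on the same side of their group means in 68 of 72 libraries, RPL37 and RPS6 in 67, and RPL37 and RPS23 in 65. The mean of the other genes listed on Z lay on that side too in 60 libraries for RPS6, 56 for RPS23 and 63 for RPL37, while the 63 other members matched it in 20 to 43 libraries (median 28). Both limbs of a number lay on the same side in 34 of 36 pairs for RPS23, 32 for RPS6 and 31 for RPL37. Numbers 2 and 4 of muff at HH21 were exceptions for all 3 genes, where the high hindlimb library was number 2 and the high forelimb library number 4. The other exceptions were numbers 3 and 4 of scale at HH25 for RPS6, and for RPL37 numbers 1 and 4 of grouse at HH21 and number 3 of scale at HH25. In grouse at HH21, replicates 1 and 2 of hindlimb and replicate 2 of forelimb had the 3 genes above the group mean and the other Z genes below it. Replicate 1 of hindlimb is the library with the 9.09% share, and there RPS6 deviated by 0.287 and the other Z genes by -0.191. The reverse was seen in grouse at HH21 in replicates 3 and 4 of hindlimb and replicate 3 of forelimb. It was also seen in replicate 2 of scale at HH25 in both limbs.

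These values sit beside the stage calls of the 3 genes. RPS6 and RPS23 were called higher at HH25 than at HH21 in both limbs (RPS6 0.39 and 0.46, RPS23 0.42 and 0.46 in hindlimb and forelimb), and RPL37 was not (0.11 and 0.16). The other Z genes had median log2 fold changes of 0.12 and 0.11 over the same step, against -0.07 and -0.06 for genes listed on autosomes. Embryo sex is not given, and its part in the calls of RPS6 and RPS23 was not tested.

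**Figure D5:**
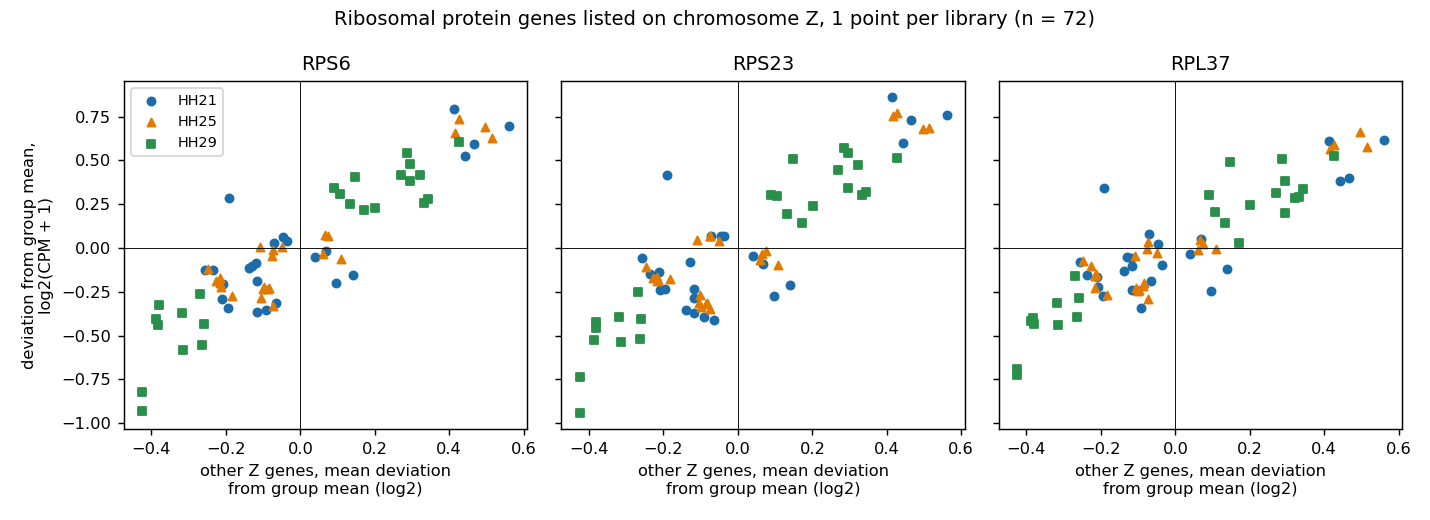
Deviation of RPS6, RPS23 and RPL37 from the mean of their own group (y axis, log2(CPM + 1)) against the mean deviation of the other Z genes (x axis, log2), 1 point per library, with stage as marker. Most libraries lie in the lower left or upper right, as the counts of 60, 56 and 63 libraries of 72 on matching sides state.

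Spread between replicates differed widely among the remaining members. RPS29, a small-subunit protein, had a standard deviation within groups of 0.373 on the log2(CPM + 1) scale. RPL7L1 (0.0869), RPL3 (0.104) and RPS7 (0.111) had the smallest. In the comparison of replicates 3 and 4 with replicates 1 and 2 at HH25, 51 members were higher and 15 lower, when 50.01% of all genes were higher, and 40 were higher in all 6 groups. The share of all genes higher in all 6 groups is not given here. The 2 limbs of a number deviated together, so the 6 groups are not separate results. RPS29 differed by 0.68. Of the 15 lower members, 7 were lower in 6 of 6 groups. They were RPS24 (-0.33), RPL23 (-0.22), RPS15A (-0.18), RPL21 (-0.13), RPL11 (-0.10), RPL14 (-0.08) and RPL9 (-0.08). At HH21, 56 members were lower and 10 higher in replicates 3 and 4, when 53.2% of all genes were higher. Of the 7 genes, RPS24 (0.11), RPL23 (0.23), RPL21 (0.15), RPL14 (0.10) and RPL9 (0.07) were among the 10. RPS15A (-0.06) and RPL11 (-0.10) were among the 56.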

How the data were processed

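Poly(A)-selected, stranded libraries were made from total RNA of dissected bud pairs, per the labels' protocols. The deposited values are whole-number read counts per feature, 1 table per library, and gene names were taken from the name column of one of the authors' deposited comparison tables. The submitters' processing notes name FastQC, STAR, featureCounts and DESeq2; no version, strand setting or handling of multiply matching reads is named there, and the build remains not given in the sources used here. Chicken libraries of the same series were not used here.

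Counts were summed per gene name. Each comparison was fitted with edgeR 4.0.16 in R 4.3.3 (filterByExpr by group, TMM, quasi-likelihood test, Benjamini-Hochberg adjustment over all genes tested, called below 0.05): stages on the 36 libraries of a limb, limbs on the 24 of a stage, phenotypes on the 12 of a stage and limb. CPM use the library total times its TMM factor, and a pseudocount of 1 was added before logs. Alternatives were DESeq2 1.42.0 with its size factors, other scalings, no filter, single features, a replicate block, a term for replicates 1 and 2 against 3 and 4, and each replicate left out. The code was tested on simulated data. Over 108 replicate pairs the chi-square per degree of freedom was at least 3.79, so none looked like a copy. Depth is 10438537 to 16378164 counts.

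Limbs of 1 number deviated together at each stage (lowest correlation of deviations from group means 0.318, 0.568 and 0.226 over 12 pairs at HH21, HH25 and HH29). Numbers were taken to pair where every correlation exceeded 0.1, a cut applied to these same data. Across phenotypes this held at HH25 (lowest 0.119 to 0.287 over 4 pairs) and nowhere else. Grouse against scale at HH21 missed it, with lowest values of 0.0788 in hindlimb and 0.0109 in forelimb and medians of 0.206 and 0.199.

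Genes were named by role or paralog, as the called members with the largest changes, by spread and by listing on Z; RPL37A, RPL34, RPS2, RPS12, RPS10, RPS3A, RPL12 and others in short lists were named after their values were seen. Some members that the rule would name are counted but not reported here by name. Members and lists were chosen with earlier results of these data known. Labels do not say that replicates are separate embryos, so p-values measure only the spread between these libraries.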

Additional observations from a re-analysis of the deposited data

Results flagged for a closer look

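The 18 groups of 4 libraries were checked for the share of counts and for the CPM of some members, in 162 checks. In 27 of these, 1 library lay far from the other 3 by Dixon's 95% criterion. Chance alone passes it in about 1 of 20 independent checks. These checks are not independent, since members deviated together and some were named for their spread or listing on Z. The count of 27 is therefore not set against that rate. Most of the 27 concern the genes listed on chromosome Z. RPS6 stood apart at HH21 in muff hindlimb replicate 2 (3705 CPM), muff forelimb replicate 4 (3422) and scale hindlimb replicate 1 (3133). At HH25 it did so in replicate 4 of grouse hindlimb (4191) and forelimb (3783) and in replicate 1 of muff hindlimb (3466) and forelimb (3589), and at HH29 in muff forelimb replicate 1 (1884, below the others). RPS23 stood apart in most of the same libraries, with 1680.3 CPM in muff forelimb replicate 4 and 1437 CPM in scale hindlimb replicate 1 at HH21, 1880.2 and 1803 CPM in grouse hindlimb and forelimb replicate 4 and 1551 and 1704 CPM in muff hindlimb and forelimb replicate 1 at HH25, and 826 CPM in muff forelimb replicate 1 at HH29. RPL37 did so with 1172 CPM in muff forelimb replicate 4 and 909 CPM in scale hindlimb replicate 1 at HH21, and at HH25 with 989 CPM in grouse forelimb replicate 4 and 1073 and 1071 CPM in muff hindlimb and forelimb replicate 1.

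Replicate 2 of grouse forelimb at HH29 stood apart by its low share of counts in ribosomal protein genes (6.47%) and its low RPL38 (195 CPM). At HH21, scale forelimb replicate 1 stood apart for RPL22 (175 CPM) and RPL7L1 (326 CPM), scale hindlimb replicate 2 for RPL22 (204 CPM) and scale hindlimb replicate 4 for RPS27L (20.6 CPM). Replicate 3 of muff forelimb at HH29 did so for RPL7L1 (244 CPM).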

How the results depend on the processing

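Of the values recomputed under each alternative, 1098 kept direction and side of the threshold, 87 lost the call, 69 gained one, 77 moved and 15 reversed; the causes were not tested. The share of all genes called is not given here for other scalings, DESeq2, no filter, single features, the set term or left-out libraries. Replicate sets moved the stage results most. With replicates 1 and 2 only (chosen after seeing the data), 38 members were called at HH25 and 27 at HH29 in hindlimb, and the hindlimb share changed by -0.638 points at HH25 (0.254 over all libraries). With replicates 3 and 4 only (also chosen after seeing the data), 43 and 45 were called at HH25 in hindlimb and forelimb, 35 at HH29 in forelimb, and the hindlimb share changed by 1.15 points. The recomputed fold changes cover only part of the members in each comparison. Over all 66 members, 48 and 37 had opposite signs between the sets at HH25 in hindlimb and forelimb, and 27 and 28 at HH29. The share of all genes with opposite signs is not given here. Among the recomputed values, log2 fold changes reversed with replicates 3 and 4 only for RPL10A (0.35), RPL22 (0.27), RPLP0 (0.22), RPS14 (0.060), RPS27 (0.18), RPS27A (0.26) and RPS29 (0.026) at HH25 in hindlimb, RPS27A (-0.17) at HH29 in hindlimb, RPL10A (0.36) and RPS14 (0.14) at HH25 in forelimb, and RPL10A (-0.11), RPS20 (-0.030) and RPS27A (-0.25) at HH29 in forelimb. Among the same values, RPSA (-0.26) in hindlimb and RPS27A (-0.21) in forelimb reversed at HH25 with replicates 1 and 2 only. A term for the sets gave 28 and 23 calls in hindlimb at HH25 and HH29, 3 for the limbs at HH25, and at HH25 1 for grouse hindlimb, 1 for grouse forelimb, 12 for muff hindlimb and 4 for muff forelimb. The replicate block gave 26 for the limbs at HH25 and, at HH25, 1, 1, 9 and 1 for the same 4 comparisons. For stages, where the numbers do not pair, the block gave 17 and 15 in hindlimb and 27 and 22 in forelimb at HH25 and HH29. DESeq2 called 1 in grouse hindlimb and 1 in grouse forelimb at HH25, 1 in muff hindlimb at HH21 and 2 at HH25, and 1 in muff forelimb at HH25 and 1 at HH29. Muff hindlimb at HH25 gave 0 under upper-quartile scaling, with no filter, and in either replicate set, and muff forelimb 1 in replicates 3 and 4 only. Without replicate 1 of grouse hindlimb at HH21 (chosen after seeing the data), 20 members were called at HH29 in hindlimb, a comparison that this library enters only through the shared fit. Leaving out each replicate number gave 12 to 21 and 5 to 13 calls in hindlimb and 17 to 29 and 17 to 23 in forelimb at HH25 and HH29, 0 for the limbs, 0 to 2 for muff hindlimb at HH25 and 0 for the other phenotype comparisons. Shares then changed by -0.0737 to 0.598 and 0.0705 to 0.363 points in hindlimb and 0.382 to 0.779 and -0.317 to -0.132 in forelimb at HH25 and HH29, and hindlimb minus forelimb by -0.161 to 0.258, -0.270 to -0.204 and 0.142 to 0.282 at HH21, HH25 and HH29. Depth limits RPL3L most, at medians of 1.51 to 1.77 CPM.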
